A study of Homo sapiens with 6 samples.

Results

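The integrin and laminin genes are 33 genes chosen by name, 22 for integrin chains (14 alpha and 8 beta) and 11 for laminin chains, among 60612 gene identifiers in a count table of U251 cells. U251 is a long-established line of human glioma cells. Polyadenylated RNA was sequenced from 3 control libraries, labelled Normal Control, and 3 libraries labelled TEAD3 Knockdown. Per the labels, the cells were transiently transfected, with a plasmid vector and an siRNA both mentioned. What the controls received is not stated, and about 36 h is given for the check of knockdown efficiency, with no time for the RNA harvest. TEAD3 encodes a transcription factor through which YAP1 and TAZ, the coactivators of the Hippo pathway, reach DNA, and the comparison asked how its knockdown bore on transcript levels.

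Integrins are cell surface receptors made of 1 alpha and 1 beta chain that bind extracellular matrix outside the cell and the actin cytoskeleton inside it. The alpha chain largely sets the ligand. Laminins are secreted trimers of an alpha, a beta and a gamma chain that form the scaffold of basement membranes, and several integrins are their receptors. In glioma, integrins and laminins are known for roles in adhesion to vessels and in invasion, and signals from integrins are known inputs to YAP1 and TAZ.

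Because TEAD factors bind DNA, the 250 bases before the transcription start were read for the members in the RefSeq promoter table (GRCh38.p14), where 24 of the 33 were matched, all but ITGA3, ITGA7, ITGA9, ITGAL, ITGB2, ITGB3, ITGB4, LAMA1 and LAMC3. The core TEAD motif GGAATG, searched on both strands (CATTCC on the other), was found in windows of 4 of these 24 genes, ITGA5, ITGB1, ITGA10 and LAMA2, and in 4 of their 31 windows. It was in 11.9% of all 35116 windows of that length. The AP-1 motif TGACTCA, on both strands (TGAGTCA), was in windows of 2 of the 24 genes, LAMA3 and LAMB3, and in 2 of the 31 windows. It was in 4.20% of all windows. The ITGA5 and ITGB1 sequences are shown because they hold a GGAATG match and belong to 2 of the more abundant chains, and those of ITGA2 and ITGA4 because these genes, with ITGA5, had the smallest p-values among the members. GENCODE 29 begins some of these genes further upstream than RefSeq, so 194 of the 250 bases of the ITGA5 window, 184 of ITGA4, 26 of ITGA2 and 2 of ITGB1 (its window with the match) lie in the first exon of the gene's own transcripts. For ITGA5 a site of 30 bases around the match is shown, at chr12:54419331-54419360 (minus strand), which is in that exon. For the others the stretch outside exons is shown, at chr10:32958233-32958480 (minus) for ITGB1, chr5:52989102-52989325 (plus) for ITGA2 and chr2:181457136-181457201 (plus) for ITGA4. Capitals mark GGAATG, and each sequence reads 5′ to 3′ toward the start.
ITGA5: tccagggacccaGGAATGcccccccgccag
ITGB1: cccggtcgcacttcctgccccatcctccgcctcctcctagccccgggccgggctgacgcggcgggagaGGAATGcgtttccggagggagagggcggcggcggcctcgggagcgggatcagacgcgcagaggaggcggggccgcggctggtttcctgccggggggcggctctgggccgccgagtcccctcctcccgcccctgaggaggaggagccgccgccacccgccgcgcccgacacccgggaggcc
ITGA2: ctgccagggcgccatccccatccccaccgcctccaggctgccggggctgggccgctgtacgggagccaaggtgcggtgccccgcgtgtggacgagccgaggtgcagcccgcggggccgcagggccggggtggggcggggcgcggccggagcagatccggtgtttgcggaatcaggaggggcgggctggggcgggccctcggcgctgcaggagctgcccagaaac
ITGA4: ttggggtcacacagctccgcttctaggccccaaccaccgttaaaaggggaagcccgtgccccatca
The match begins 82 bases before the RefSeq start in ITGA5 and 182 bases before it in ITGB1. A match is a description of letters, not evidence of binding, and no match says only that these letters are not in this window.

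Library totals lay between 58344026 and 64808615 counts. At this depth 3 counts are worth 0.0457 to 0.0529 CPM (the count scaled to a fixed library total, corrected here by TMM, a trimmed-mean library factor). That floor covers counting error only. TEAD3 was at 14.9, 20.3 and 21.0 CPM in the controls, in the order of replicates 1 to 3 kept throughout, against 4.70, 8.35 and 6.08 CPM under knockdown (log2 fold change -1.55, edgeR adjusted p = 0.0114). That call was lost without control replicate 3 (adjusted p = 0.0541), knockdown replicate 1 (0.0532) or knockdown replicate 3 (0.0938), all by edgeR. Among the controls, deviations from the control mean rose with GC content in replicate 2 and fell with it in replicates 1 and 3, as given below. Replicate 1 deviated nearly as far as replicate 2, with Spearman correlations of -0.510 and 0.555 over 17505 genes. Values without control replicate 2 are given for some members above 1 CPM, and member fits without the other libraries mostly as ranges. The vimentin gene VIM, a marker of the line, was at 4334, 4276 and 4842 CPM in controls, against 3648, 3955 and 3433 CPM under knockdown (log2 fold change -0.29, edgeR adjusted p = 0.2). The astrocyte marker GFAP was at 1.25, 1.32 and 1.80 CPM in controls, against 0.546, 0.375 and 0.796 CPM under knockdown (-1.34, edgeR adjusted p = 0.143, DESeq2 adjusted p = 0.0519). Both were lower in each knockdown library than in each control, and neither was called. Among leukocyte markers, CD3E and MS4A1 had no count, and the summed level of the markers was 1.40 to 1.73 CPM in controls, against 1.40 to 2.26 CPM under knockdown. The labels do not say that replicates came from separate cultures, so p-values measure only how these libraries vary, which may be technical.

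None of the 28 members that passed the filter on low counts was called at an adjusted p under 0.05, by the edgeR quasi-likelihood test with Benjamini-Hochberg adjustment over 17723 genes, where 0.655% of all genes were called (0.451% higher and 0.203% lower). The lowest adjusted p-values among members were those of ITGA2, ITGA5 and ITGA4, all higher in each knockdown library than in each control. At an unadjusted p under 0.05 there were 5 members, 4 higher (ITGA2, ITGA5, ITGA4 and ITGAE) and 1 lower (LAMB2), which is 17.9% of the tested members against 15.6% of all genes. By direction, 14.3% of the tested members were higher and 3.57% lower, against 8.15% and 7.43% of all genes. For 7 of 28 members (25%) the control values lay apart from the knockdown values, against 21.6% of all genes. Of these, 5 were higher (17.9% of members, against 11% of all genes) and 2 lower (7.14% against 10.6%). A log2 fold change above 0 was found for 15 of 28 (53.6%), against 49.8% of all genes. The shares over both directions and the share above 0 were near the background. By direction, the higher shares were above and the lower shares below those of all genes, on 1 to 5 members each and with no test. In bulk RNA, fewer cells of a type and less RNA per cell cannot be told apart. DESeq2 called 3 members, ITGA5, ITGA2 and ITGA4, all higher, where it called 4.92% of all genes (2.75% higher and 2.17% lower), and limma-voom called no member and 0.677% of all genes. The median log2 fold change, knockdown over control, was 0.08 over the tested members and 0.00 over all genes tested, and the median size without sign was 0.25 and 0.20. Log2 fold changes of the 28 tested members ran from -0.83 to 0.56, and none of these passed 1 in either direction, against 5.21% of all genes.

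**Figure D1:**
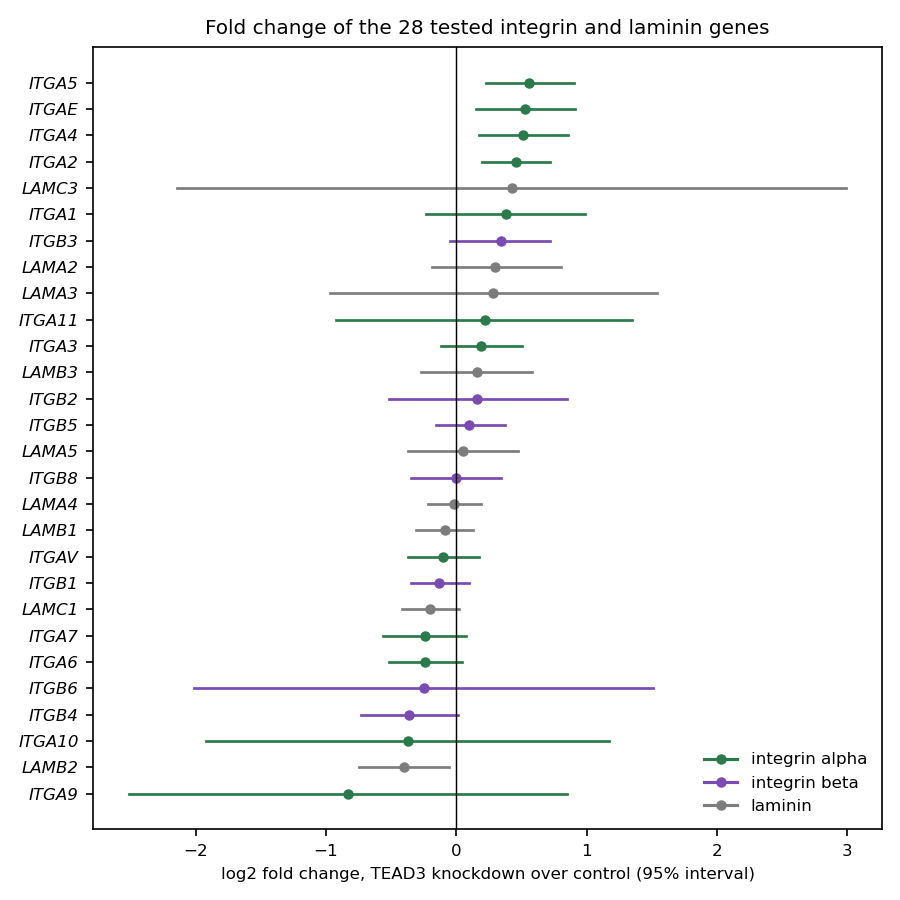
Log2 fold change, TEAD3 knockdown over control, of the 28 tested integrin and laminin genes (points), with the 95% interval of the edgeR fit (lines); colours give the chain type. ITGA5, ITGAE, ITGA4 and ITGA2 lie at 0.46 to 0.56 with intervals above 0, LAMB2 at -0.40 with an interval below 0, and the widest intervals belong to genes under 1 CPM.

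Levels per length set the order of the chains. Here FPKM is the TMM-scaled CPM divided by the kilobases of all annotated exons of the gene. In control libraries ITGA3 was the most abundant chain at 105 ± 21.7 FPKM (SD, n = 3), and ITGB1 the next at 66.5 ± 7.47 FPKM. They held the first and second places in all 6 libraries. ITGB4 (30.2 ± 6.97), LAMB2 (28.2 ± 7.25), LAMC1 (28.2 ± 1.93), ITGA5 (23.8 ± 5.36) and LAMB1 (22.1 ± 2.13 FPKM) followed, and neighbours in this order did not differ beyond their spread. With the longest transcript as the length, ITGA5 took the third place (36.1 FPKM) ahead of ITGB4 (34.5), so the order within these 5 genes depended on the length used. ITGA5 held place 6 by its mean in the controls and place 3 in each knockdown library. Next came LAMA4 (7.16 ± 0.120), LAMA5 (6.67 ± 2.00), ITGAV (5.86 ± 0.771), ITGA6 (5.84 ± 0.762) and ITGA7 (4.90 ± 0.947 FPKM). LAMA4 was above ITGAV, ITGA6 and ITGA7 in every control library. LAMA5 overlapped with LAMA4 and with these integrin chains, which overlapped with each other.

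**Figure D2:**
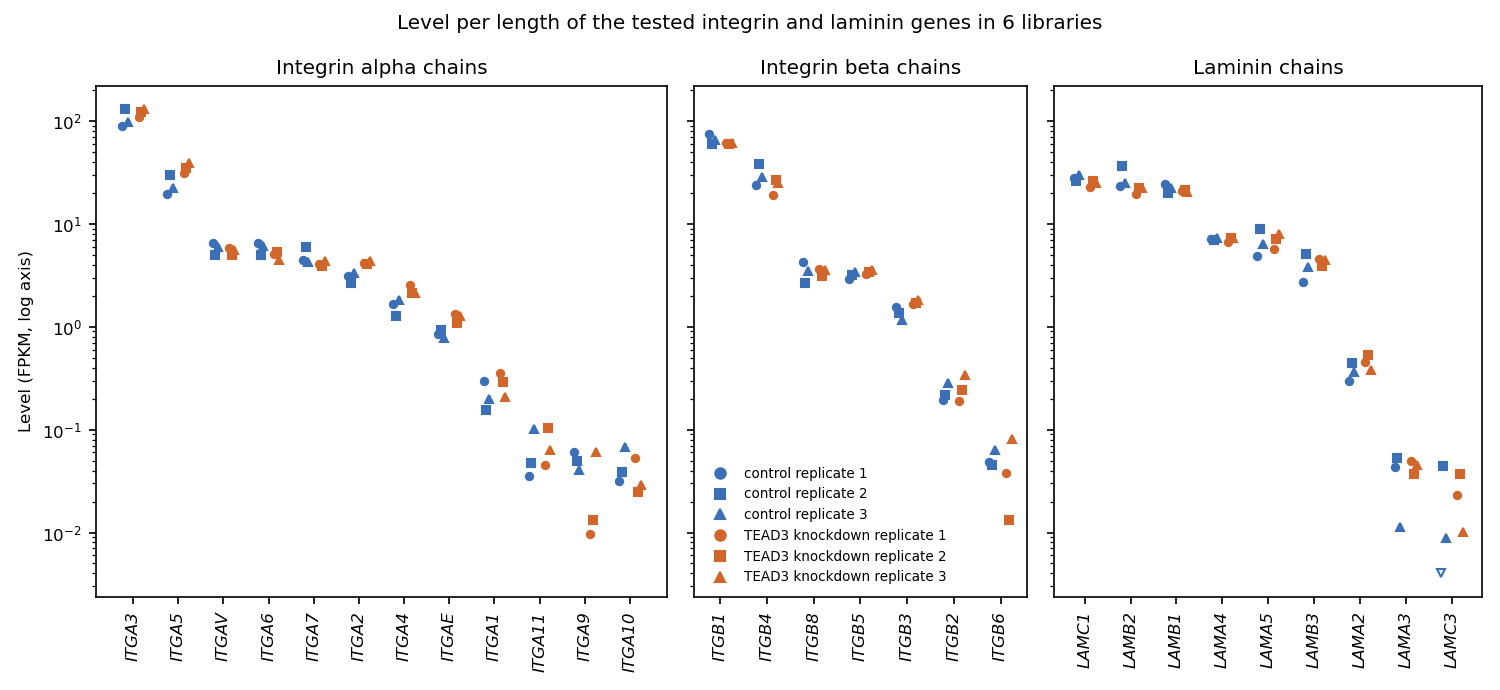
Level per length (FPKM, log axis) of the 28 tested genes in each of the 6 libraries, ordered by control mean within integrin alpha, integrin beta and laminin chains; an open triangle marks a library with no count. ITGA3 and ITGB1 stand above the other chains in every library, and ITGA1, ITGA11, ITGA9, ITGA10, ITGB2, ITGB6, LAMA2, LAMA3 and LAMC3 lie under 1 FPKM.

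The fibronectin receptor chain ITGA5 had the largest positive fold change among the tested members. ITGA5 pairs with ITGB1 and recognises the RGD sequence of fibronectin, as does the vitronectin and fibronectin receptor chain ITGAV. The gene (ENSG00000161638) is at 54395261 to 54419460 of chromosome 12 (GRCh38, minus strand). Control libraries held 147, 225 and 169 CPM of ITGA5, against 235, 265 and 298 CPM under knockdown. Each knockdown library lay above each control, and the gap was narrow between knockdown replicate 1 and control replicate 2. ITGA5 was 1.48-fold higher (log2 fold change 0.56, SE 0.152, 95% interval 1.17 to 1.86-fold), with an edgeR adjusted p of 0.126. DESeq2 gave 0.00739 as its adjusted p. Without control replicate 2 the log2 fold change was 0.75 and ITGA5 was called (edgeR adjusted p = 0.0262). It was the 1 member called in that fit, so ITGA2 and ITGA4 were not. Over fits leaving out each library in turn, the log2 fold change of ITGA5 was 0.43 to 0.75. That of ITGA2 was 0.37 to 0.53 and that of ITGA4 0.38 to 0.62. ITGA5 took 14.7%, 16.4% and 15.7% of the summed FPKM of the alpha chains in the controls and 19.0%, 19.6% and 20.5% in the knockdown, without overlap. This share was chosen after its values were seen and is given with no test. ITGAV, at 53.8, 41.3 and 49.2 CPM in controls, against 47.7, 41.1 and 45.7 CPM under knockdown, overlapped between groups (log2 fold change -0.10, edgeR adjusted p = 0.758). ITGA8, the other RGD-binding alpha chain among the members, had no count in any library.

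Collagen-binding alpha chains were led by ITGA2, the alpha chain of a collagen receptor with ITGB1. ITGA2 (ENSG00000164171, chromosome 5, 52989326 to 53094779, plus strand) was at 24.8, 21.2 and 26.5 CPM in controls, against 32.9, 32.1 and 34.7 CPM under knockdown. The 3 knockdown libraries lay close together and above all controls. The difference was 1.37-fold (log2 fold change 0.46, SE 0.119), with an edgeR adjusted p of 0.113 and a DESeq2 adjusted p of 0.0134. ITGA1, its neighbour on chromosome 5 and also a collagen receptor chain, was at 5.52, 2.87 and 3.71 CPM in controls, against 6.58, 5.36 and 3.87 CPM under knockdown, and the groups overlapped (0.38, edgeR adjusted p = 0.553). Exons of ITGA1 overlap those of PELO on the same strand, so its counts are uncertain. ITGA10 and ITGA11, chains of cartilage and mesenchymal collagen receptors, stayed at or under 1.12 CPM in every library (edgeR adjusted p of 0.864 and 0.901).

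ITGA4 and ITGAE, integrin chains best known from leukocytes, were also above every control in the knockdown. ITGA4 binds fibronectin and VCAM1, and ITGAE binds E-cadherin with ITGB7. ITGA4 (ENSG00000115232, chromosome 2, 181457202 to 181536187, plus strand) was at 13.1, 10.2 and 14.3 CPM in controls, against 19.9, 16.7 and 17.0 CPM under knockdown. It was 1.43-fold higher (0.51, SE 0.157, edgeR adjusted p = 0.16, DESeq2 adjusted p = 0.0377). ITGAE was at 5.65, 6.15 and 5.14 CPM against 8.81, 7.20 and 8.40 CPM, a log2 fold change of 0.53 (SE 0.173, edgeR adjusted p = 0.184, DESeq2 adjusted p = 0.0732). Exons of ITGAE overlap those of HASPIN on the opposite strand over 6.41% of their length. The defining leukocyte gene PTPRC was at or under 0.122 CPM in every library. ITGB2, the beta chain of leukocyte integrins, was at 1.57 ± 0.311 CPM in controls, against 1.76 ± 0.529 CPM under knockdown (SD, n = 3 each). ITGA9 was at 0.503, 0.405 and 0.333 CPM in controls, against 0.0803, 0.109 and 0.505 CPM under knockdown, so knockdown replicate 3 was level with the highest control (-0.83, edgeR adjusted p = 0.665). An antisense gene overlaps 6.46% of the exon length of ITGA9.

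**Figure D3:**
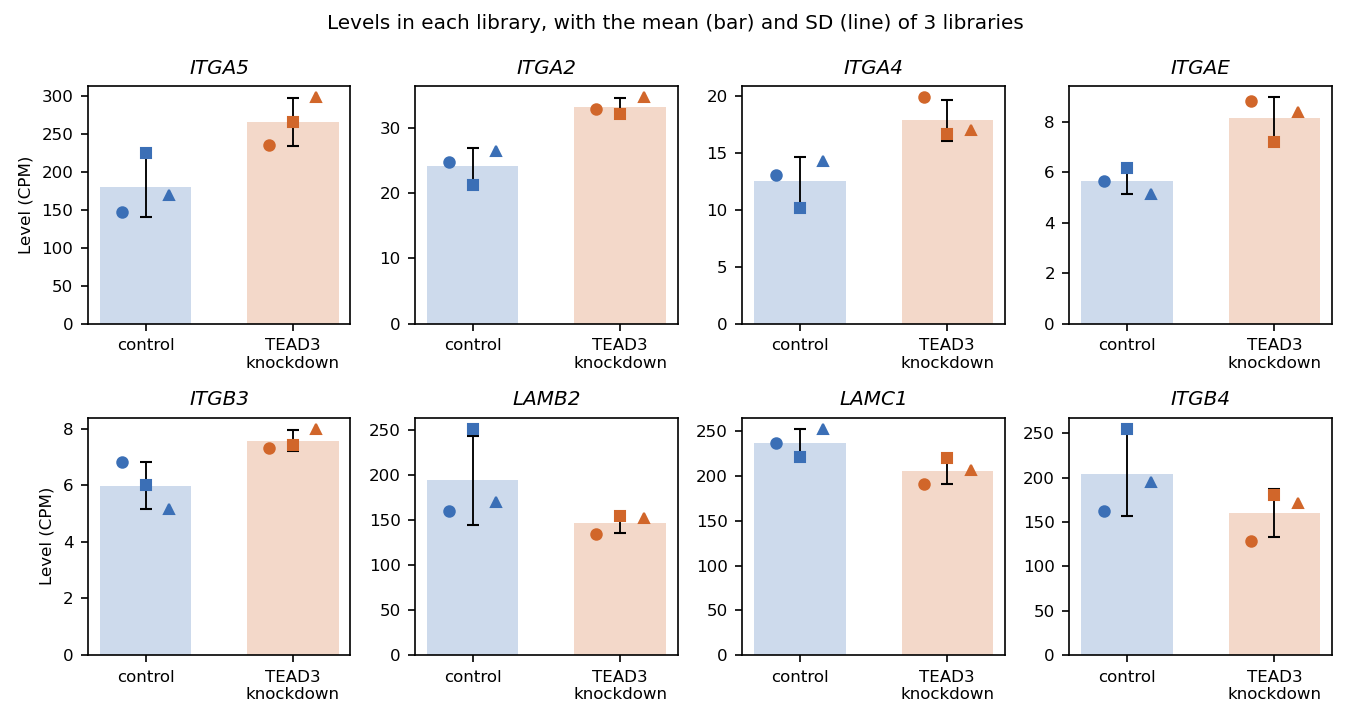
TMM-scaled CPM in each library for 8 members, the 7 whose groups do not overlap and ITGB4; bars and lines give the mean and SD of 3 libraries, and circles, squares and triangles are replicates 1, 2 and 3. The lowest knockdown library is above the highest control for ITGA5, ITGA2, ITGA4, ITGAE and ITGB3, and the highest knockdown library is below the lowest control for LAMB2 and LAMC1.

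Laminin-binding alpha chains gave no common direction. ITGA3, which binds laminins of basement membranes with ITGB1, was at 873, 1274 and 948 CPM in controls, against 1064, 1193 and 1273 CPM under knockdown. Control replicate 2 was level with the highest knockdown library (log2 fold change 0.19, 95% interval 0.922 to 1.41-fold, edgeR adjusted p = 0.563). ITGA6, a laminin receptor chain that pairs with ITGB1 or ITGB4 and is a known marker of glioma stem cells, was at 42.3, 32.6 and 39.6 CPM in controls, against 32.9, 34.7 and 29.4 CPM under knockdown (-0.24, edgeR adjusted p = 0.399). ITGA7, the main laminin receptor chain of muscle, was at 28.5, 38.1 and 27.1 CPM and at 26.2, 24.9 and 28 CPM (-0.24, edgeR adjusted p = 0.445). Both overlapped between groups.

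Among beta chains, ITGB1, the common partner of most alpha chains, had the highest level and no called difference. It was at 447, 357 and 396 CPM in controls, against 366, 362 and 371 CPM under knockdown, where the 3 libraries were close together and within the range of the controls (log2 fold change -0.13, 95% interval 0.784 to 1.07-fold, edgeR adjusted p = 0.607). ITGB4, which joins ITGA6 in hemidesmosomes, was at 162, 255 and 195 CPM in controls, against 129, 180 and 171 CPM under knockdown. Its groups overlapped at control replicate 1 (-0.36, SE 0.168, edgeR adjusted p = 0.342), and leaving out control replicate 2 gave -0.17 and leaving out knockdown replicate 1 gave -0.22. The partners of ITGAV were ITGB3, ITGB5, ITGB6 and ITGB8. ITGB3, a vitronectin receptor chain, was at 6.81, 5.99 and 5.16 CPM in controls, against 7.30, 7.42 and 7.99 CPM under knockdown, without overlap (0.34, edgeR adjusted p = 0.386). Exons of an overlapping gene model on the same strand cover 51.6% of the exon length of ITGB3, so its counts are uncertain. ITGB5, another vitronectin receptor chain, was at 20.4 ± 1.74 and 21.9 ± 1.06 CPM (0.10, edgeR adjusted p = 0.743). ITGB8, which with ITGAV binds latent TGF-beta, was at 64.0, 40.2 and 52.6 CPM and at 55.8, 46.6 and 54.3 CPM, with a log2 fold change of 0.00 (95% interval 0.787 to 1.27-fold, edgeR adjusted p = 0.998). ITGB6, an epithelial chain, stayed at or under 0.383 CPM, and a gene model on the same strand overlaps 20.6% of its exon length.

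Sums and ratios of chains per length were read for each library. The alpha chains together were at 132, 181 and 142 FPKM in controls and 163, 179 and 192 FPKM in the knockdown, and the beta chains at 107, 105 and 103 FPKM against 88.8, 95.2 and 96.3 FPKM. The sum of alpha over the sum of beta chains was 1.23, 1.73 and 1.37 in the controls and 1.84, 1.88 and 1.99 in the knockdown, so each knockdown library lay above each control. The alpha sums overlapped and the beta sums did not. ITGA3 over ITGB1, the most abundant chains, was 1.20, 2.19 and 1.47 in the controls and 1.78, 2.02 and 2.10 in the knockdown, which overlapped. ITGA5 over ITGAV and ITGB4 over ITGA6 overlapped too, whereas ITGA5 over ITGB1 did not (0.261, 0.501 and 0.339 against 0.509, 0.582 and 0.638). ITGA3 made up 69.2% ± 2.32 of the alpha sum in controls and 67.5% ± 0.789 in the knockdown (SD, n = 3 each). ITGB1 made up 63.3% ± 6.27 and 65.3% ± 2.91 of the beta sum. ITGA2 over ITGB1 did not overlap (0.0423, 0.0451 and 0.0509 in the controls, 0.0682, 0.0674 and 0.071 in the knockdown). The laminin genes together were at 90.8, 104 and 95 FPKM in controls and 80.3, 88.8 and 87.3 FPKM in the knockdown, without overlap. LAMB2 over LAMA5 did not overlap either, being lower in the knockdown, whereas LAMB2 over LAMB1 and LAMA5 over LAMA4 overlapped. These sums and ratios were formed after the values were seen, carry no test, and concern transcripts, not chains at the cell surface.

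A few chains made up most of the laminin transcripts. LAMC1, the gamma chain of most laminins, held 99.9% of the summed gamma FPKM of LAMC1 and LAMC3 in both groups. LAMA4, a chain of vessel and mesenchymal laminins, and LAMA5, a chain of laminins of mature basement membranes, made up 51.0% ± 7.54 and 46.1% ± 7.36 of the alpha sum in controls, which did not differ beyond the spread. In the knockdown they were at 49.0% ± 2.53 and 47.5% ± 3.16. LAMB2 and LAMB1 made up 51.5% ± 6.92 and 41.4% ± 8.13 of the beta sum in controls, and 45.9% ± 2.02 and 44.8% ± 1.49 in the knockdown (SD, n = 3 each).

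LAMB2 had the lowest unadjusted p among the laminin genes. It encodes a beta chain of laminins at synapses, kidney glomeruli and vessels (ENSG00000172037, chromosome 3, 49121114 to 49133118, minus strand). LAMB2 was at 160, 251 and 170 CPM in controls, against 134, 154 and 152 CPM under knockdown, where every library was below every control. Its log2 fold change was -0.40 (SE 0.156, edgeR adjusted p = 0.251, DESeq2 adjusted p = 0.0932). Control replicate 2 carried much of it, and without that library the log2 fold change was -0.18 (edgeR adjusted p = 0.275). LAMC1 was at 237, 221 and 253 CPM in controls, against 191, 220 and 207 CPM under knockdown (-0.20, edgeR adjusted p = 0.359), without overlap but with the nearest libraries at 221 and 220 CPM. LAMB1, the beta chain of the laminin of early basement membranes, was at 197, 162 and 181 CPM against 169, 173 and 166 CPM (-0.09, edgeR adjusted p = 0.733).

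Among laminin alpha chains none differed beyond the spread. LAMA4 was at 82.9 ± 1.39 CPM in controls, against 81.8 ± 4.32 CPM under knockdown (SD, n = 3 each), with an interval of 0.857 to 1.14-fold. LAMA5 was at 69.6, 126 and 90.2 CPM in controls, against 81.6, 102 and 113 CPM under knockdown, a spread of the controls that enclosed the knockdown (0.05, edgeR adjusted p = 0.946). LAMA2, the alpha chain of muscle and nerve laminin, was at 3.08, 4.58 and 3.78 CPM against 4.67, 5.50 and 3.93 CPM (0.30, edgeR adjusted p = 0.568). LAMB3, an epidermal chain, was at 12.8, 23.7 and 17.8 CPM in controls, against 21.2, 18.3 and 21.0 CPM under knockdown (0.16, edgeR adjusted p = 0.764). Its usual alpha partner LAMA3 stayed at or under 0.776 CPM, and LAMC3 at or under 0.335 CPM.

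Besides ITGA8, 4 of the 33 members did not pass the filter. LAMB4 had no count, LAMA1, the alpha chain of early embryonic laminin, had 41 counts over the 6 libraries, and ITGAL, the alpha chain of a lymphocyte integrin, had 49. ITGB7, the partner of ITGAE and ITGA4 in lymphocytes, had 0 counts in each control and 8, 8 and 7 counts in the knockdown. Its mean of 0.120 CPM in the knockdown was 2.43-fold a floor of 3 counts per control library. This ratio leaves out the counting error of the knockdown counts, so it is not a lower bound. Without the filter its edgeR adjusted p was 0.352, and exons of ITGB7 overlap those of ZNF740 on the opposite strand over 42.1% of their length.

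The deviations of the members among the controls varied with base composition. Over the 22 members with a mean of at least 1 CPM, the deviation of control replicate 2 from the control mean (log2 of CPM plus 0.5) had a Spearman correlation of 0.878 with the GC content of the longest transcript, and that of control replicate 1 one of -0.798. Over 17505 genes the correlations were 0.555 and -0.510. These are descriptions across genes of 1 library each, with the control mean in common. LAMA5 (66.4% GC), LAMB2 (60.3%), ITGB4 (63.7%), ITGA5 (54.5%) and ITGA3 (61.3%) were 0.44, 0.40, 0.35, 0.34 and 0.32 above the control mean in control replicate 2. ITGA1 (38.8%), ITGB8 (37.8%) and ITGB1 (40.0%) were at -0.39, -0.35 and -0.16 there. In the knockdown, replicate 3 had a correlation of 0.703 and replicate 1 of -0.688 over the same 22 genes, but only 0.0203 and -0.13 over all genes. Without control replicate 2 the log2 fold changes were 0.37 for ITGA3, 0.30 for LAMA5, 0.39 for LAMB3, 0.19 for ITGA1, -0.08 for ITGA7 and -0.16 for ITGB8, and none of these was called by edgeR.

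**Figure D4:**
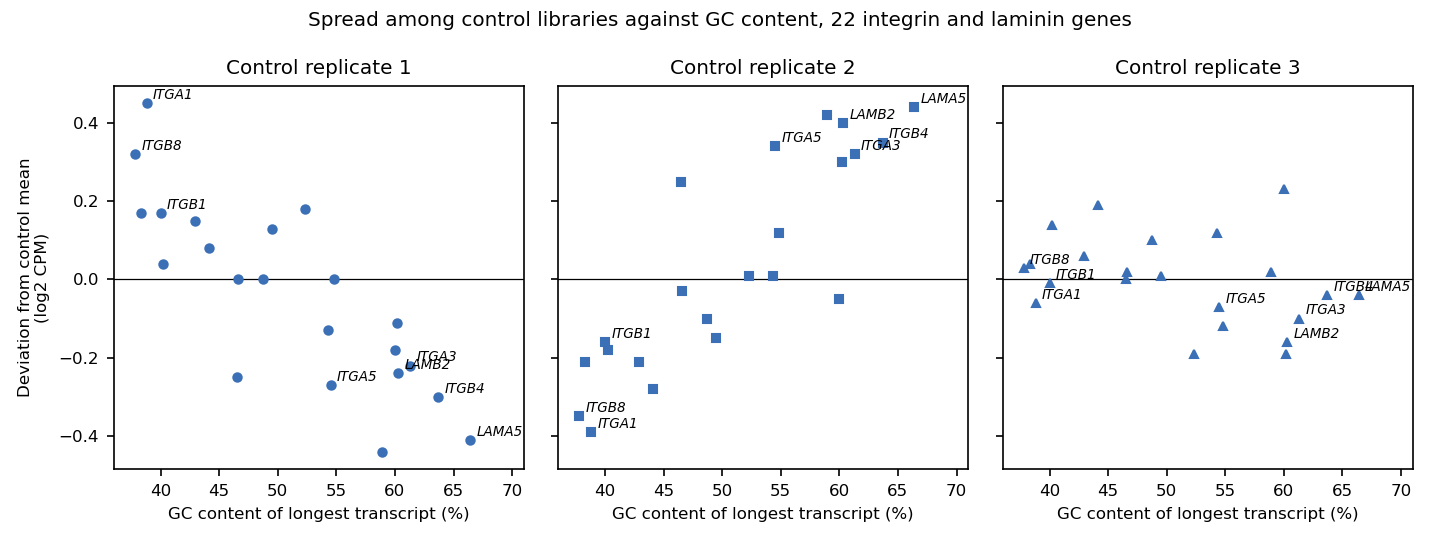
Deviation of each control library from the mean of the 3 controls (log2 CPM) against the GC content of the longest transcript, for 22 members with at least 1 CPM on average. GC-rich members such as LAMA5 and LAMB2 are at 0.44 and 0.40 in control replicate 2 and at -0.41 and -0.24 in control replicate 1, and control replicate 3 shows smaller deviations.

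With a per-library correction for transcript length and GC content, 4 members were called, ITGA5, ITGA2 and ITGA4 higher and LAMB2 lower, which is 14.3% of the tested members where 3.14% of all genes were called (1.52% higher and 1.61% lower). The log2 fold changes were 0.65 for ITGA5, 0.48 for ITGA2, 0.58 for ITGA4 and -0.34 for LAMB2, with edgeR adjusted p-values of 0.0156, 0.0171, 0.0398 and 0.0483. ITGB4 was at -0.33 (edgeR adjusted p = 0.0669) and ITGAE at 0.59 (0.0766). The other 24 tested members were not called. The correction estimates its curves from the same libraries without counting that step as error, so these p-values may be too small.

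**Figure D5:**
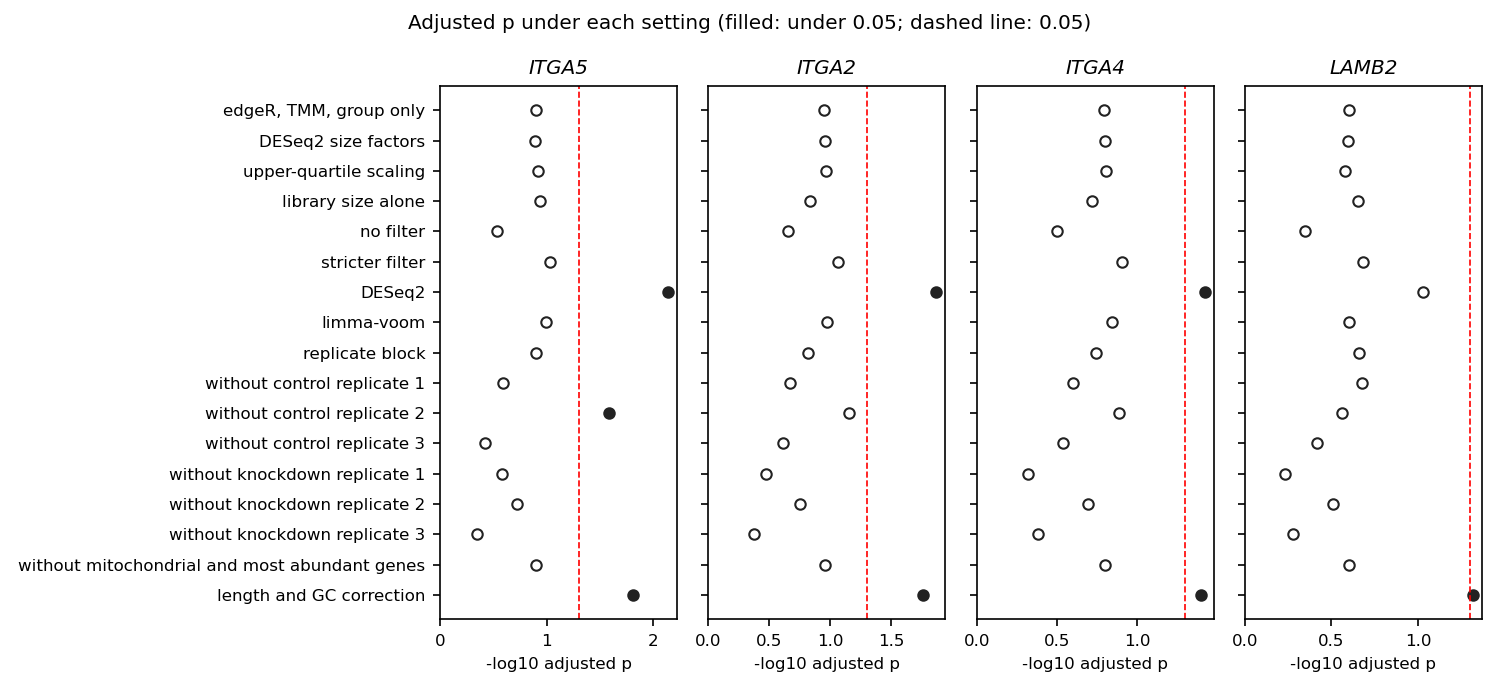
Minus log10 of the adjusted p of ITGA5, ITGA2, ITGA4 and LAMB2 under each setting of normalisation, filter, test, samples and correction; filled points are under 0.05 and the dashed line is at 0.05. ITGA5, ITGA2 and ITGA4 pass with DESeq2 and with the length and GC correction, ITGA5 also without control replicate 2, and LAMB2 with the correction alone.

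Genes that act with integrins and laminins were described from 5 lists, with counts of edgeR calls. Of all genes tested, edgeR called 0.655% (0.451% higher and 0.203% lower) and DESeq2 4.92% (2.75% higher and 2.17% lower). By unadjusted edgeR p under 0.05, 8.15% of all genes were higher and 7.43% lower. The lists were chosen with earlier results of these data known, so their counts are descriptions. Of 23 tested genes for other integrin ligands, 2 rose and none fell. TGFBI, a matrix protein that binds integrins, was at 60.9, 65.4 and 76.9 CPM in controls, against 121, 117 and 116 CPM under knockdown (log2 fold change 0.80, SE 0.108, edgeR adjusted p = 0.00913). FBN1, the microfibril protein fibrillin 1, was at 17.3, 17.4 and 14.8 CPM and at 27.6, 25.2 and 34.1 CPM (0.81, SE 0.142, edgeR adjusted p = 0.0312). Without knockdown replicate 1 or 3 neither was called, at log2 fold changes about as large for TGFBI (0.79 and 0.82, edgeR adjusted p = 0.0577 and 0.0697) and of 0.85 and 0.68 for FBN1 (0.13 and 0.227). Leaving out control replicate 1 or 3 also ended the call of FBN1 (0.85 and 0.74, edgeR adjusted p = 0.0825 and 0.155). DESeq2 called 4 of these ligand genes, all higher, TGFBI and FBN1 with the thrombospondin genes THBS2 and THBS1, which are named after their values were seen. The median of the list was 0.15.

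None of the other 4 lists had a call by edgeR. Of 28 tested focal adhesion adaptor genes, 11 had a log2 fold change above 0 and 17 below, with a median of -0.03, 3 lower and none higher by unadjusted p (under 0.05), and 1 lower by DESeq2. The lowest p-values were those of TNS3 (tensin 3, -0.37, edgeR adjusted p = 0.156) and VCL (vinculin, -0.36, 0.198, with AP3M1 on the opposite strand over 11.1% of its exon length). Of 14 other basement membrane genes, 7 were above and 7 below 0, with 1 in each direction by unadjusted p and 1 higher by DESeq2. COL4A1, a collagen IV chain, was at 0.42 (edgeR adjusted p = 0.126) and NID1, nidogen 1, which links laminin to collagen IV, at -0.39 (0.207). Of 16 genes for integrin-associated membrane proteins and other laminin receptors, by unadjusted p 1 was higher and 2 lower, and DESeq2 called 1 in each direction. BCAM, a receptor for laminins with the LAMA5 chain, was at 34.4, 59.1 and 34.1 CPM in controls, against 23.3, 31.5 and 23.5 CPM under knockdown (-0.70, edgeR adjusted p = 0.154, and -0.39 without control replicate 2), and RPSA, a ribosomal protein also described as a laminin receptor, was at 0.32 (0.169). Of 8 integrin traffic genes, 2 were lower by unadjusted p, NUMB (-0.33, edgeR adjusted p = 0.158) and DAB2 (-0.29, 0.245), both adaptors of endocytosis, none was higher, and DESeq2 called 1 lower.

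Summed marker levels were as follows. Those of the glial and fibroblast lists did not overlap between groups, and each was mostly 1 gene, VIM and COL1A2. The summed level of 10 glial or glioma line markers was 5315 to 5882 CPM in controls, against 4379 to 4937 CPM under knockdown, and that of 6 fibroblast or pericyte markers 1153 to 1451 CPM and 997 to 1035 CPM. COL1A2, a collagen I chain, was at 1106, 1403 and 1124 CPM in controls and 992, 972 and 950 under knockdown, while COL1A1, the other collagen I chain, was higher in each knockdown library (0.50, edgeR adjusted p = 0.209). Of the 4 fibroblast or pericyte markers tested, 2 were above and 2 below 0. Leukocyte sums are given above, 6 endothelial markers summed to 2.39 to 3.08 CPM in controls, against 2.04 to 3.55 CPM under knockdown, and 6 epithelial markers to 304 to 396 CPM and 320 to 334 CPM. The summed level of 5 RNAs without a poly(A) tail was 32.7 to 78.5 CPM in controls, against 36.2 to 161 CPM under knockdown. All 5 had a log2 fold change above 0, with a median of 1.06 and 3 at an unadjusted p under 0.05, and none was called by edgeR or DESeq2. RN7SL1, the most abundant, was at 14.7, 34.5 and 17.6 CPM in controls and at 60.8, 14.4 and 79.8 CPM under knockdown, with replicate 2 below all controls. The part of any of these in the member results was not tested.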

How the data were processed

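RNA-seq counts of U251 cells, 3 control and 3 TEAD3 knockdown libraries, were analysed. The authors deposited whole-number counts per Ensembl gene without scaling. The submitters' processing notes list, with no roles, StringTie 1.3.4d, HISAT2 2.0.4, cutadapt 1.9, edgeR and DESeq2, and build GRCh38. The library protocol in the labels marks strand. Not given in the sources used here were the tool that wrote the counts, the strand setting, the treatment of multi-mapped reads and the annotation release. Counts may thus be rounded estimates, and those of genes whose exons overlap another gene are uncertain. Only the larger overlaps are given in the text.

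Identifiers were matched to GENCODE release 29 (58394 of 60612), which also gave coordinates, exon lengths and overlaps. All members were found. In R 4.3.3, edgeR 4.0.16 was run with TMM, filterByExpr (minimum 10 counts), a quasi-likelihood F test with group as the only term, two-sided, and Benjamini-Hochberg adjustment over the 17723 genes tested. Alternatives used DESeq2 1.42.0, limma 3.58.1 and those listed in the closing section. The length and GC correction fitted a loess (span 0.3) per library over 12102 protein-coding genes and entered as offsets. The code was tested on simulated counts. Named genes were the 33 members, TEAD3 and, from each of the 5 lists of related genes, called genes or, with none, the 2 with the lowest p. Marker genes and other genes were named after their values were seen. The members and lists were chosen with earlier results of these data known. Deposited counts between libraries of a group differed by more than counting noise.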

Additional observations from a re-analysis of the deposited data

How the results depend on the processing

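Member calls were 0 with DESeq2 size factors, upper-quartile scaling, library size alone, no filter, the stricter filter (1 CPM in 3 libraries), limma-voom, the replicate block, an adjusted p under 0.01, and without mitochondrial and the 10 most abundant genes. They were 3 with DESeq2, 4 with the length and GC correction (3 higher and 1 lower), and 0 to 1 when each library was left out. Of 28 tested members, 6 had no DESeq2 adjusted p.

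Counts over all genes, 116 as reported, were 31 with no filter, 872 with DESeq2, 556 with the length and GC correction (270 higher and 286 lower, where 80 and 36 were reported), 27 at an adjusted p under 0.01, and 20 to 589 when each library was left out. The replicate block gave 63. Over all tested genes, deviations of same-numbered libraries had correlations of 0.0183, -0.0496 and -0.0055. Over the 22 members of at least 1 CPM, deviations correlated with GC content at -0.798 (control) and -0.688 (knockdown) for number 1. These values were 0.878 and 0.206 for number 2, and -0.432 and 0.703 for number 3. Whether the numbers mark a shared preparation was not tested.

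Calls among other integrin ligands, 2 as reported, were 1 with no filter, 4 with DESeq2, 1 with the replicate block, 5 with the length and GC correction (4 higher and 1 lower, EDIL3), 1 at an adjusted p under 0.01 and 0 to 4 when each library was left out. Focal adhesion adaptors had 1 call with DESeq2 and 0 to 1 without each library. Other basement membrane genes had 1 with DESeq2 and 1 with the length and GC correction. Integrin-associated proteins and laminin receptors had 2 with DESeq2, 1 with the correction and 0 to 1 without each library. Integrin traffic genes had 1 with DESeq2.

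TEAD3 was not called with no filter (-1.56, edgeR adjusted p = 0.0639), at an adjusted p under 0.01 (-1.55), or without control replicate 3 or knockdown replicate 1 or 3 (-1.46, -1.37 and -1.52), and its log2 fold change was -1.80 to -1.37 when each library was left out. LAMA4 and LAMB1 turned to 0.09 and 0.02 with the length and GC correction. Signs also turned when 1 library was left out, over ranges of -0.77 to 0.02 for ITGA10, -0.16 to 0.79 for ITGA11, -0.09 to 0.35 for ITGB2, -1.04 to 0.18 for ITGB6, -0.14 to 0.66 for LAMA3, -0.04 to 0.03 for LAMA4, -0.13 to 0.30 for LAMA5, -0.04 to 0.39 for LAMB3 and -0.17 to 2.38 for LAMC3. ITGB8, at 0.00, was read as having no direction. The cause of these differences was not tested. Depth limits the 6 tested members under 1 CPM. The upper ends of their 95% intervals lay between 1.81-fold (ITGA9) and 7.94-fold (LAMC3) of the control level. The lower ends lay between 0.175-fold (ITGA9) and 0.528-fold (ITGA11).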
